A study of Homo sapiens with 18 samples.

Results

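The response of 786-O cells to hairpins against USP13 was compared with their response to hairpins against ZHX2, gene by gene. 786-O is an established line from a clear-cell carcinoma of the kidney, without functional VHL. All 18 libraries of the series enter the comparison, 9 from each of 2 experiments. In the USP13 experiment, sh50, sh52 and a control hairpin (shCtrl) have 3 libraries each. In the ZHX2 experiment, sh43, sh45 and a separate shCtrl group have 3 libraries each. The USP13 response is the mean log2 change under sh50 and sh52 against their control, and the ZHX2 response is the mean log2 change under sh43 and sh45 against theirs. The difference is the USP13 response minus the ZHX2 response. The target and the experiment cannot be told apart, because no hairpin against USP13 or ZHX2 was used in both. The labels mention doxycycline-inducible hairpin vectors but do not say whether these libraries came from such cells. Nor do they say whether replicates were separate cultures, so the p-values rest on a spread between samples that may be technical.

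USP13 is a deubiquitinating enzyme, which removes ubiquitin from proteins and can thereby protect them from the proteasome. ZHX2 is a transcription factor with zinc fingers and homeoboxes that accumulates in clear-cell renal carcinoma when VHL, the ubiquitin ligase subunit that marks it for degradation, is lost. The series title names ZHX2 as a protein that USP13 deubiquitinates, so the comparison asks which transcripts move alike when enzyme and substrate are lowered separately.

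The target sites of both USP13 hairpins are shown first because they state what was aimed at. Capitals mark the 7 bases opposite positions 2 to 8 of the exact complement, where the seed of the guide strand would lie.

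sh50: cgcctgatgaaccAATTGATa

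sh52: ccggtgaaatctgAACTCATt

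Each 21-base target had a full match in GENCODE 29 transcripts of 1 gene, USP13. The sh50 site lies in coding exon 16 of 21 of the full-length transcript, at chr3:179757054-179757074 of GRCh38, plus strand. The sh52 site lies in coding exon 10, at chr3:179730662-179730682. The 2 marked stretches differ. The sequences of sh43 and sh45 were not analysed here. One protocol text in the labels lists hairpins 43 and 45 under USP13, whereas titles and characteristics assign them to ZHX2, so the levels of both targeted genes are given next.

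USP13 stood at 35.8, 33.6 and 30.8 CPM (counts scaled to a common library size, with factors from the trimmed mean of M values) in its control. It stood at 16.3, 16.7 and 20 under sh50 and at 14.5, 17.6 and 17.4 under sh52. The groups did not overlap, and the USP13 response was -0.96 (SE 0.085, edgeR adjusted p = 1.6e-10). In the ZHX2 experiment USP13 was at 40.9, 39.7 and 45.6 in the control, 32.9, 40.1 and 36.6 under sh43 and 47.3, 51.3 and 45 under sh45. The mean of sh43 and sh45 was -0.01 from control (edgeR adjusted p = 0.93).

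ZHX2 stood at 345, 351 and 350 CPM in the control of its own experiment. It was at 40.1, 44.9 and 40.1 under sh43 and at 93.3, 84.6 and 82.2 under sh45, a response of -2.53 (SE 0.046, edgeR adjusted p = 7.6e-31). The libraries labelled sh43 and sh45 thus had low ZHX2 and not low USP13. In the USP13 experiment ZHX2 was at 153, 144 and 152 CPM in the control, 132, 130 and 130 under sh50 and 132, 133 and 137 under sh52. ZHX2 transcript fell there too, with a USP13 response of -0.18 (SE 0.047, edgeR adjusted p = 0.0065). In bulk RNA such as this, fewer cells with a transcript and less of it per cell cannot be told apart.

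Total estimated counts per library lay between 11192561 and 16511290, and 14200 genes passed the filter on low counts. Replicate 1 of sh52 stands apart from its group, at -38.79 on the second principal component of its experiment against -3.39 and -6.01 for the other sh52 libraries, and with the fewest genes detected, 15481. Mitochondrial rRNA took 2.54% to 2.7% of counts in the USP13 control, 3.54% to 4.43% under its hairpins, 1.18% to 1.32% in the ZHX2 control and 1.51% to 3.35% under sh43 and sh45. The 2 control groups themselves differed by more than 2-fold in 1257 of the 14200 genes (8.85%, with 0.5 CPM added, no test). PAX8, a renal lineage factor, was at 343 to 537 CPM in every library, and VIM, KRT8 and KRT18 were present in all. CA9, COXFA4L2 and LRP2, also on the tumour marker list of 11, were at or near 0. Of the leukocyte list of 10, CD3E, CD3D and HBB were at 0 in all 18 libraries, while CD68 was at 17.3 to 63.0 CPM, and the list's sum was 28.4 to 31.5 in the USP13 control, 18.5 to 23.5 under sh50, 35.9 to 37.7 under sh52, 37.7 to 46.1 in the ZHX2 control, 18.6 to 19.3 under sh43 and 59.7 to 63.5 under sh45. The 6 fibroblast markers summed to 16.6 to 27.1 CPM in the USP13 experiment and 19.0 to 38.4 in the ZHX2 experiment, highest in its control. The endothelial markers summed to 0.591 to 4.34 CPM. The part of these sums in the results below was not tested.

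The difference between responses passed the test in 6169 genes, 43.4% of those tested (edgeR quasi-likelihood F-test, adjusted p under 0.05 here and throughout). It was positive in 3229 (22.7%) and negative in 2940 (20.7%), and exceeded 1 on the log2 scale in 1156 (8.14%). A response was called when the mean of both hairpins passed and both hairpins had its sign. The USP13 response was called higher in 1425 genes (10.0%) and lower in 1476 (10.4%). The ZHX2 response was called higher in 3472 genes (24.5%) and lower in 3489 (24.6%). The SD of log2 changes over all genes was 0.354 for USP13 and 0.718 for ZHX2, and 114 against 1241 genes moved by more than 1. Without sh52 replicate 1 the difference was called in 6289 genes and the USP13 response in 2941. The USP13 response was called in fewer genes without USP13 shCtrl replicate 1 (1981) or replicate 2 (1992).

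Both responses were called in 1716 genes, which is 59.2% of the genes called for USP13 and 24.7% of those called for ZHX2. Over all genes tested, ZHX2 calls took 24.5% higher and 24.6% lower, and USP13 calls 10.0% and 10.4%. The size of the overlap was not tested. They moved in the same direction in 1160 of the 1716 (67.6%) and in opposite directions in 556. The shared genes comprise 573 higher under both targets (4.04% of genes tested) and 587 lower under both (4.13%). Opposite genes were higher with USP13 and lower with ZHX2 hairpins in 231 cases (1.63%) and the reverse in 325 (2.29%). A further 229 genes rose (1.61%) and 241 fell (1.70%) with USP13 hairpins while ZHX2 missed the threshold and the difference passed. The same rule gave 1705 ZHX2-specific genes that rose (12.0%) and 1947 that fell (13.7%). Without sh52 replicate 1 there were 1206 shared, 541 opposite, 469 USP13-specific and 3730 ZHX2-specific genes. Without USP13 shCtrl replicate 1 there were 768 shared, 402 opposite and 345 USP13-specific genes. Leaving out USP13 shCtrl replicate 2 gave 827 shared, 375 opposite and 318 USP13-specific genes.

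**Figure D1:**
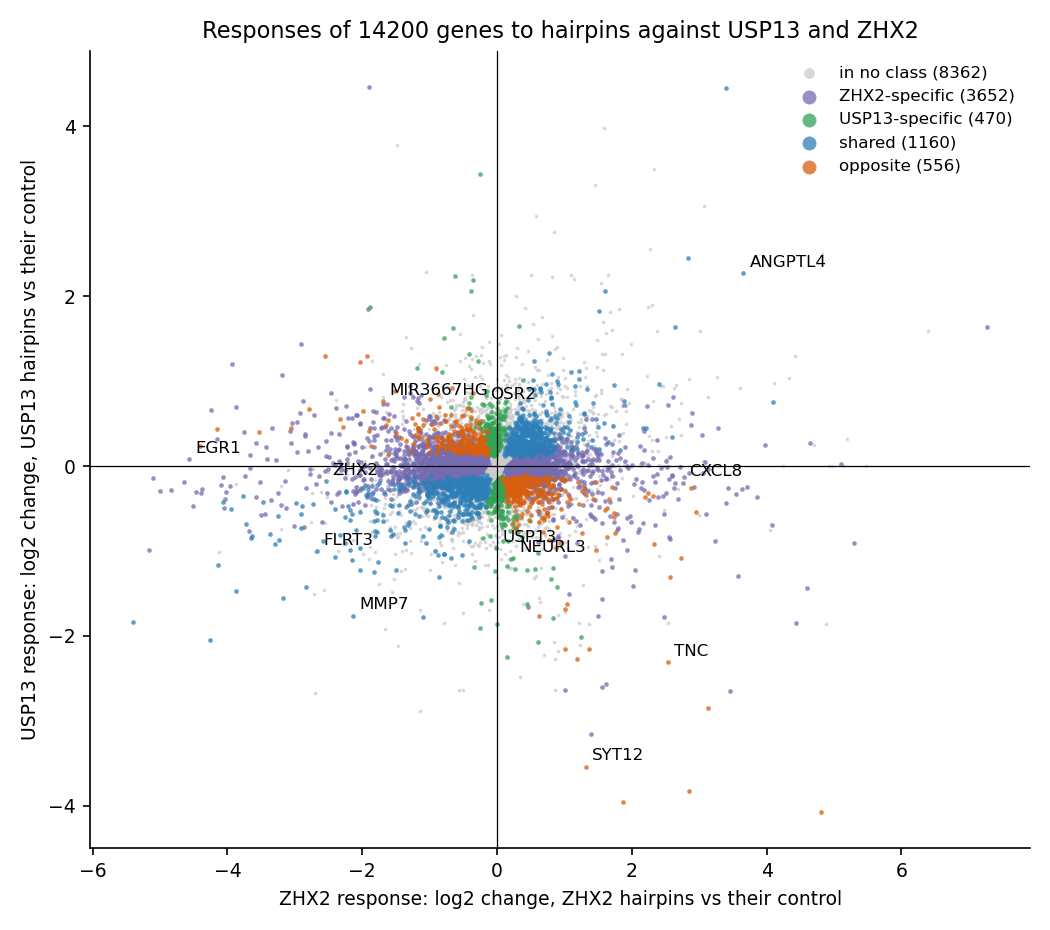
Each point is 1 of 14200 genes, with the ZHX2 response on the horizontal axis and the USP13 response on the vertical axis, both as log2 change against the experiment's own control; colours mark shared (1160), opposite (556), USP13-specific (470), ZHX2-specific (3652) and remaining genes. The cloud is wider along the ZHX2 axis (SD 0.718) than along the USP13 axis (SD 0.354), and r across genes is 0.11.

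Across the 14200 genes the responses had Pearson's r of 0.11 and a Spearman correlation of 0.152, given as a description since genes are not independent. The 4 pairings of 1 USP13 with 1 ZHX2 hairpin, which share no control, gave r of 0.086 for sh50 with sh43, 0.166 for sh50 with sh45, 0.047 for sh52 with sh43 and 0.058 for sh52 with sh45. Of the shared genes, 497 also differed in size, 471 with the larger change under ZHX2 hairpins and 26 under USP13 hairpins. Between the hairpins of 1 target, 1156 genes passed under sh43 and sh45 in opposite directions, and 28 under sh50 and sh52. A call needs the mean to pass, which gave 2901 genes for USP13 and 6961 for ZHX2. Counted over all genes tested, both hairpins passed singly in the same direction in 1190 genes for USP13 and 3959 for ZHX2. Of the 470 USP13-specific genes, 169 passed under neither ZHX2 hairpin taken alone, and in 135 sh43 and sh45 passed in opposite directions. Of the 3652 ZHX2-specific genes, 3174 passed under neither USP13 hairpin. Requiring every hairpin to pass left 344 shared and 131 opposite genes.

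The 6 genes of each class with a mean of at least 5 CPM are described next, ranked by the weakest of the 4 hairpins, or for specific genes by the weakest difference between hairpins. Among shared lower genes, MMP7 came first. MMP7 encodes matrilysin, a secreted protease of matrix and cell-surface proteins. It stood at 19.4, 17.2 and 16.9 CPM in the USP13 control, 5.65, 4.91 and 4.45 under sh50 and 5.1, 6.59 and 5.09 under sh52. In the ZHX2 experiment it stood at 7.07, 9.6 and 6.22 in the control, 1.2, 1.52 and 1.98 under sh43 and 1.55, 2.19 and 2.1 under sh45. Every hairpin library lay below every control library of its experiment. The responses were -1.76 (SE 0.14) and -2.13 (SE 0.18), and their difference of 0.37 did not pass (edgeR adjusted p = 0.2).

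The other shared lower genes cover adhesion and transport. FLRT3, a guidance and adhesion receptor, changed by -1.01 under sh50, -0.99 under sh52, -2.02 under sh43 and -3.33 under sh45. USH1C, the microvillus scaffold harmonin, changed by -1.13 and -1.76. SLC6A12, a betaine carrier, changed by -0.82 and -1.57, and SLC7A7, a subunit of a cationic amino acid exchanger, by -1.03 and -0.79. PTER, a kidney-expressed amidohydrolase, changed by -0.80 and -1.55. The difference passed for FLRT3, SLC6A12, PTER and USH1C, the last at an edgeR adjusted p of 0.048. The USH1C difference missed the threshold in 12 of the 18 refits that each leave out 1 library, with values of 0.47 to 0.69 in these. The SLC7A7 difference passed at -0.29 without sh50 replicate 2 or sh52 replicate 3 (edgeR adjusted p = 0.0389 and 0.0354).

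ANGPTL4, a secreted lipoprotein lipase inhibitor and HIF target, led the shared higher genes. It stood at 0.981, 0.849 and 0.694 CPM in the USP13 control, 5.21, 5.5 and 4.16 under sh50 and 3.65, 3.22 and 3.35 under sh52. In the ZHX2 experiment it stood at 12.4, 11.7 and 11.7 in the control, 161, 147 and 185 under sh43 and 142, 137 and 132 under sh45. Hairpin and control libraries did not overlap in either experiment, although the starting levels differed. The USP13 control libraries held 13, 14 and 9 reads. The responses were 2.27 (SE 0.21) and 3.65 (SE 0.083), and the difference of -1.39 passed (edgeR adjusted p = 0.00022).

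NCEH1, a cholesteryl ester hydrolase, rose by 0.94 and 1.15, and GPRC5C, an orphan receptor, by 0.96 and 0.72. PCOLCE2, which enhances procollagen processing, rose by 0.71 and 0.68. EMC3-AS1, a noncoding RNA antisense to EMC3, rose by 0.97 and 0.90, and its reads cannot be told apart from those of an overlapping gene in these libraries without strand. The difference passed for none of these 4. For NCEH1 it did pass without USP13 shCtrl replicate 3, at -0.27, or ZHX2 sh45 replicate 3, at -0.24 (edgeR adjusted p = 0.0235 and 0.038). HMGA1, an architectural chromatin protein, rose by 0.75 with USP13 and by 4.09 with ZHX2 hairpins. Its USP13 control libraries held 2.87, 1.33 and 1.77 CPM, and without the second of them the USP13 response of 0.50 missed the threshold (edgeR adjusted p = 0.172).

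TNC, the matrix glycoprotein tenascin-C, had one of the widest opposite differences among the ranked genes. It stood at 0.679, 0.546 and 1.16 CPM in the USP13 control, 0.0869, 0.265 and 0.293 under sh50 and 0.138, 0.157 and 0 under sh52. In the ZHX2 experiment it stood at 9.72, 10.3 and 6.85 in the control, 58.2, 52.5 and 50.6 under sh43 and 51.2, 51.5 and 46.8 under sh45. The groups did not overlap in either experiment, but the USP13 side rests on 9, 9 and 15 reads in the control and 0 to 5 under hairpins. The responses were -2.31 (SE 0.47) and 2.54 (SE 0.12).

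TSPAN13, a tetraspanin, had more reads behind it. It stood at 34.2, 31.2 and 33.5 CPM in the USP13 control, 16.9, 15.8 and 17.7 under sh50 and 15.4, 20 and 15.1 under sh52. It stood at 34, 35.3 and 35.8 in the ZHX2 control, 70, 70 and 71.8 under sh43 and 57.9, 60 and 56.2 under sh45. The 2 controls were alike and the hairpin groups lay on opposite sides of them, with responses of -0.97 (SE 0.075) and 0.87 (SE 0.07). The difference was -1.84 (SE 0.1, edgeR adjusted p = 2e-16).

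MARCHF3, a membrane ubiquitin ligase, had responses of -0.91 and 0.93, and KRT79, a keratin, of -0.91 and 2.32. The USP13 response of KRT79 was -0.70 without USP13 shCtrl replicate 3 (edgeR adjusted p = 0.0516). PGF, placental growth factor, had -1.08 and 2.72, with 9 to 11 reads in the USP13 control libraries and 3 to 8 under hairpins. It kept its class in 5 of the 18 refits that each leave out 1 library, and its USP13 response was -0.90 to -1.19 in those where it missed the threshold. SYT12, a synaptotagmin, held 3, 4 and 1 reads in the USP13 control, 0, 0 and 1 under sh50 and 0 in all sh52 libraries. No fold is given for it there, and its ZHX2 response was 1.32 (SE 0.14).

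The opposite genes that rose with USP13 hairpins include 3 enzymes. ALDH1A3, which makes retinoic acid, stood at 20.4, 17.8 and 17.4 CPM in the USP13 control, 27.1, 24.7 and 26 under sh50 and 27.4, 30.5 and 30.2 under sh52. It stood at 17, 19.1 and 17.8 in the ZHX2 control, 5.69, 6.48 and 5.28 under sh43 and 8.33, 9.09 and 11.2 under sh45. Neither experiment's hairpin and control libraries overlapped, and the responses were 0.57 (SE 0.091) and -1.27 (SE 0.1). HSD17B14, a hydroxysteroid dehydrogenase, had 0.78 and -0.99, and CYP2E1, a cytochrome P450, had 0.54 and -1.61. NINL, a centrosomal protein, had 0.53 and -0.76. The noncoding LINC02615 had 0.89 and -1.51, and MIR3667HG had 0.77 and -1.68. Without USP13 shCtrl replicate 1 the USP13 responses of HSD17B14, at 0.68, and CYP2E1, at 0.45, missed the threshold (edgeR adjusted p = 0.0728 and 0.0918).

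**Figure D2:**
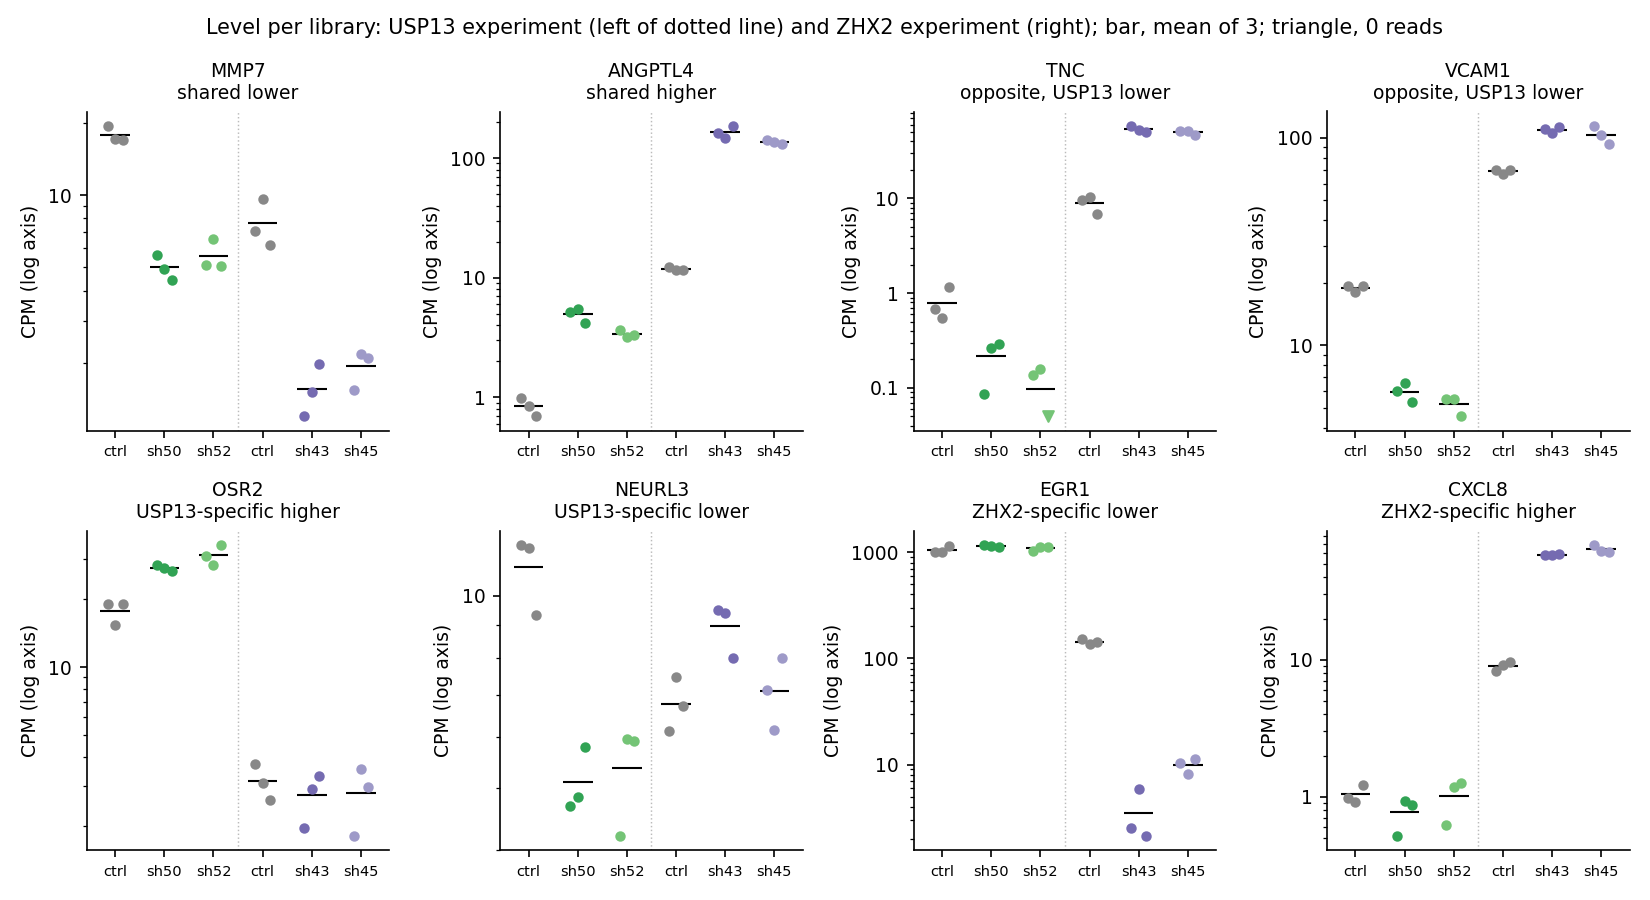
CPM on a log axis for 8 genes in all 18 libraries, with the USP13 experiment left of the dotted line and the ZHX2 experiment right of it; each point is a library, each bar a group mean of 3, and a triangle a library with 0 reads. MMP7 falls and ANGPTL4 rises under all 4 hairpins, and TNC and VCAM1 move in opposite directions. The control levels of all 8 genes differ between experiments, among them TNC (means of 0.794 CPM in the USP13 and 8.94 in the ZHX2 control) and ANGPTL4 (0.841 and 11.9).

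OSR2, a zinc-finger factor of kidney and limb development, led the USP13-specific genes that rose. It stood at 18.9, 15.3 and 19 CPM in the USP13 control and 26.4 to 34.4 under sh50 and sh52, a response of 0.72 (SE 0.11). In the ZHX2 experiment it was at 3.73, 3.1 and 2.59 in the control and 1.81 to 3.57 under hairpins, where its change was -0.19 (edgeR adjusted p = 0.41). The lower level in that experiment gives the ZHX2 side the wider error (SE 0.2). ARHGEF16, a guanine nucleotide exchange factor, rose by 0.73, ZNF10, a zinc-finger repressor, by 0.47, and OVGP1, a secreted glycoprotein, by 0.64. Without USP13 shCtrl replicate 1 or 2 the ZNF10 response was 0.45 or 0.38 and missed the threshold (edgeR adjusted p = 0.0631 and 0.125). The difference for OVGP1 was lost without USP13 shCtrl replicate 1 or 2, sh43 replicate 1 or ZHX2 shCtrl replicate 1 or 3, at 0.61 to 0.67. GLIPR2 rose by 0.51, and 6 of the 18 refits lost or reclassified it. All sh45 libraries lay below the ZHX2 control for ARHGEF16 (5.93 to 7.06 against 7.54 to 9.29 CPM) and GLIPR2 (8.2 to 10.5 against 12.2 to 14.1). For ZNF10 all sh43 libraries did (3.37 to 4.12 against 4.43 to 5.6). The other ZHX2 hairpin overlapped the control in each case. NPIPB4 rose by 0.76 but belongs to a family of near-identical copies, so its counts are uncertain. Its difference was also lost without USP13 shCtrl replicate 1 or ZHX2 shCtrl replicate 1 or 3, at 0.62 to 0.65.

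NEURL3, a ubiquitin ligase, led the USP13-specific genes that fell. It stood at 12, 11.9 and 9.33 CPM in the USP13 control, 4.69, 4.84 and 5.8 under sh50 and 4.21, 5.97 and 5.93 under sh52, a response of -1.08 (SE 0.14). It was at 6.14, 7.46 and 6.71 in the ZHX2 control, 9.51, 9.39 and 8 under sh43 and 7.12, 6.17 and 7.98 under sh45. The sh45 libraries overlapped the control, whereas every sh43 library lay above it. The difference was -1.32 (SE 0.2, edgeR adjusted p = 1.4e-06). PLEK, a protein kinase C substrate, changed by -0.73, and TAPBPL, an editor of MHC class I peptides, by -0.71. Each lay above the ZHX2 control under 1 ZHX2 hairpin and overlapped it under the other. PLEK was at 10.7, 12.7 and 10.7 CPM under sh45 against 7.85, 7.9 and 7.2 in that control. TAPBPL was at 13.3, 10.4 and 11 under sh43 against 7.31, 8.86 and 9.57. KLHL28, a Kelch protein, changed by -0.63 and OSTF1, an osteoclast-stimulating factor, by -0.55. SLC19A2, a thiamine carrier, changed by -0.38, and its ZHX2 change of 0.25 lay close to the threshold (edgeR adjusted p = 0.058). Its USP13 response missed the threshold without USP13 shCtrl replicate 1 (-0.35, edgeR adjusted p = 0.06) or 2 (-0.36, 0.0593), and its ZHX2 change passed in 3 other refits. The ZHX2 change of OSTF1 passed without ZHX2 shCtrl replicate 2, at 0.28 (edgeR adjusted p = 0.0262).

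EGR1, an immediate early transcription factor, fell with ZHX2 hairpins and not with USP13 hairpins. It stood at 152, 136 and 143 CPM in the ZHX2 control, 2.55, 5.89 and 2.14 under sh43 and 10.3, 8.12 and 11.2 under sh45. In the USP13 experiment it stood at 998, 1011 and 1137 in the control, 1163, 1135 and 1112 under sh50 and 1022, 1118 and 1117 under sh52. The ZHX2 response was -4.57 (SE 0.094) and the USP13 response 0.08 (edgeR adjusted p = 0.42). The control level was several times higher in the USP13 experiment.

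CFI, the complement regulator factor I, had a ZHX2 response of -3.66 against -0.03. The latter joins opposed changes, from 232 CPM in the USP13 control to 208 under sh50 and 249 under sh52. TMEM86A, an enzyme of plasmalogen breakdown, had -3.43 against 0.22, and TMEM37, a calcium channel subunit, had -3.66 against 0.13. ZFHX4-AS1, a noncoding RNA, had -4.40 against -0.31, the latter close to the threshold (edgeR adjusted p = 0.053) and past it in 5 of the 18 refits. It held 3, 1 and 4 reads under sh43 and 12, 3 and 10 under sh45, so the size of its fall is not well fixed. MYO7A, an unconventional myosin, fell from 1.71, 2.81 and 2.52 CPM to 0 to 0.135. At 0 to 2 reads in the ZHX2 hairpin libraries, its size is not well fixed.

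CXCL8, the neutrophil chemokine interleukin-8, rose with ZHX2 hairpins from 8.24, 9.16 and 9.71 CPM to 58.2, 57.9 and 59.5 under sh43 and 68.5, 62.1 and 61.6 under sh45. In the USP13 experiment it was near 1 CPM or below it in every library, at 6 to 18 reads. The ZHX2 response was 2.76 (SE 0.096), and the USP13 response was -0.20 (SE 0.26, edgeR adjusted p = 0.67). TMEM158, a Ras-induced membrane protein, rose by 3.86, and PTX3, a soluble pattern recognition protein, by 4.07. In the USP13 experiment TMEM158 held 13 to 28 reads per library and PTX3 2 to 15. KCNK3, a potassium channel, rose by 2.77, F3, the coagulation tissue factor, by 2.32, and TM4SF19 by 3.22 under sh43 and 1.79 under sh45. KCNK3 was at 27.4 to 30.3 CPM in the USP13 control, so its USP13 change of -0.13 (SE 0.071, edgeR adjusted p = 0.2) was measured with more reads than that of CXCL8.

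**Figure D3:**
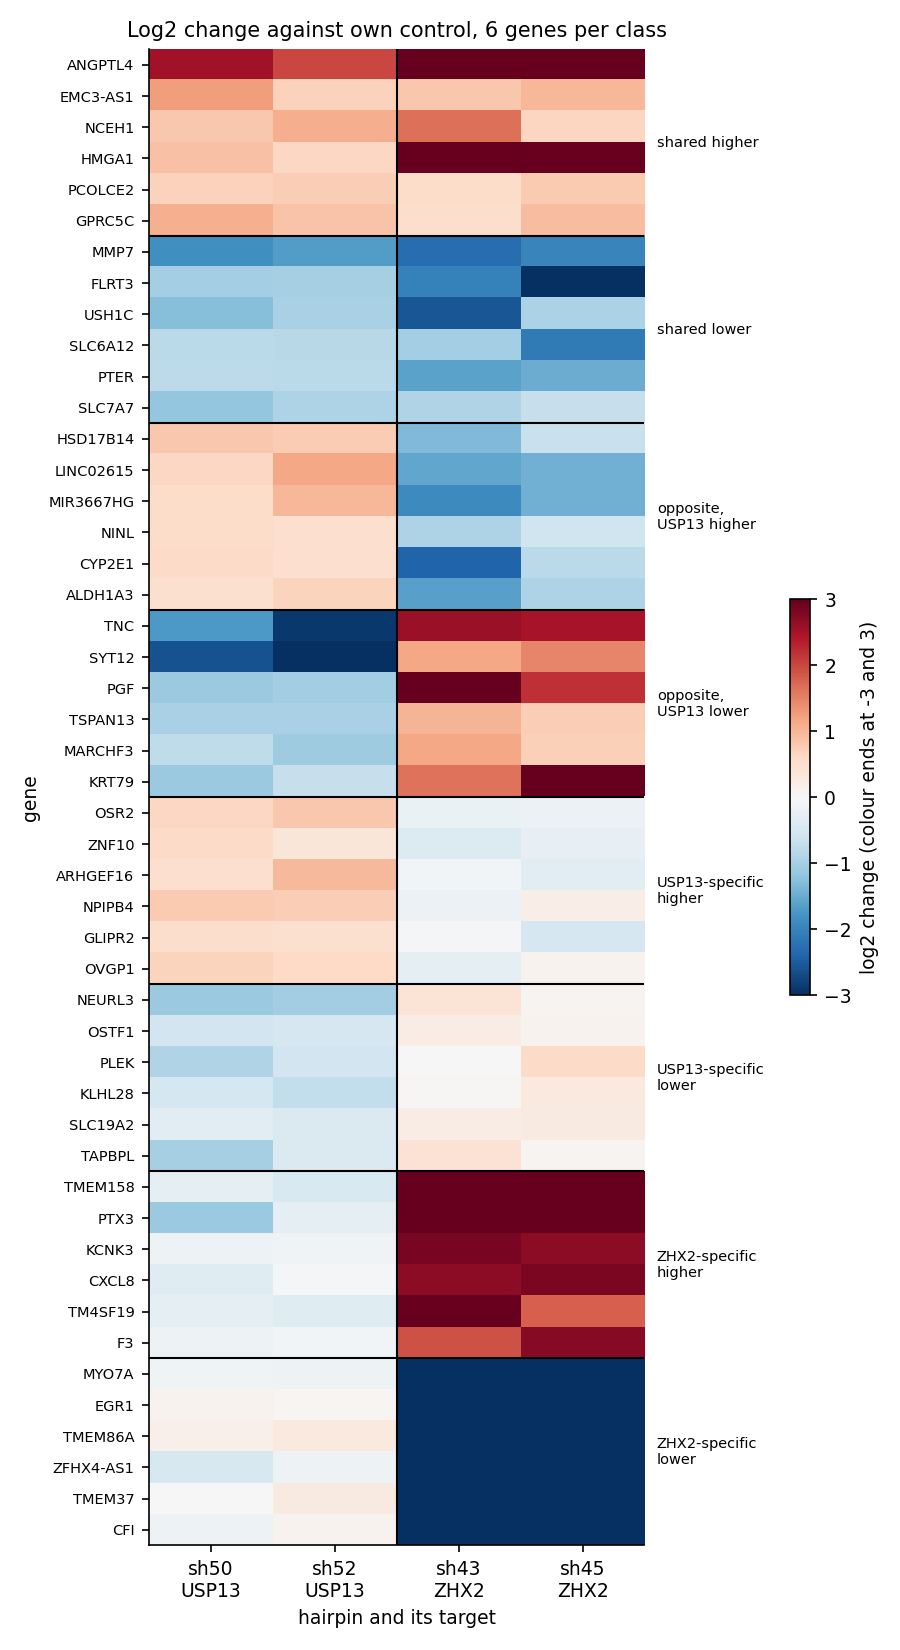
Log2 change under each of the 4 hairpins against the control of its own experiment for the 6 ranked genes of each of the 8 classes, with red for higher and blue for lower and the colour ending at -3 and 3. Shared genes have 1 colour across a row, opposite genes change colour at the central line, and ANGPTL4 and HMGA1 are redder under sh43 and sh45.

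Regulators linked to both proteins were followed as a fixed set of 12. EPAS1, which encodes HIF2A, stood at 77.5, 77.2 and 76.5 CPM in the USP13 control, 59.1, 52.1 and 58.6 under sh50 and 63.1, 73.3 and 74.3 under sh52. It stood at 211, 208 and 219 in the ZHX2 control, 366, 364 and 371 under sh43 and 303, 274 and 275 under sh45. It was thus lower in every USP13 hairpin library and higher in every ZHX2 hairpin library, with responses of -0.29 and 0.60. RELA, the p65 subunit of NF-kB, moved the same way, with -0.34 and 0.19. SKP2, a ubiquitin ligase subunit that targets cell-cycle inhibitors, fell under both, by 0.89 with USP13 and by 0.42 with ZHX2 hairpins, and the difference of -0.47 passed (edgeR adjusted p = 2.8e-05). VHL transcript rose by 0.18 and 0.35. The USP13 rise of VHL missed the threshold without sh50 replicate 3, sh52 replicate 3 or USP13 shCtrl replicate 1 or 3, at 0.13 to 0.18 (edgeR adjusted p = 0.0677 to 0.178). ZHX3, a paralog of ZHX2, rose with ZHX2 hairpins by 0.31 and had a USP13 change of 0.00. The latter joins opposed changes, from 64.5 CPM in the USP13 control to 70.2 under sh50 and 59.5 under sh52. No difference was called for ZHX1 (0.15), USP5 (-0.05), HIF1A (-0.27), NFKB1 (-0.20) or ARNT (0.15), although HIF1A and ARNT had ZHX2 responses of 0.34 and -0.31. The difference for HIF1A passed without sh52 replicate 3, sh45 replicate 3 or ZHX2 shCtrl replicate 2, at -0.30 to -0.34, and that for NFKB1 passed without sh50 replicate 3 or sh43 replicate 3, at -0.23.

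Gene lists by function were counted next, against the 43.4% of all tested genes whose responses differed. For the other counts, 10.0% of all tested genes rose and 10.4% fell in the USP13 response. In the ZHX2 response 24.5% rose and 24.6% fell. Shared higher and shared lower genes made up 4.04% and 4.13%. Opposite genes made up 1.63% (USP13 higher) and 2.29% (USP13 lower). The list counts carry no test. Inflammatory NF-kB targets called for USP13 mostly fell, and those called for ZHX2 mostly rose. Of 23 tested, 1 rose and 9 fell in the USP13 response, and 14 rose and 2 fell in the ZHX2 response. Only 5 of the 23 were called in both and opposite with USP13 lower. The list medians were -0.12 and 0.71, and the difference was called in 73.9%. Per hairpin the medians were -0.26 for sh50, -0.07 for sh52, 0.67 for sh43 and 0.59 for sh45. VCAM1, a leukocyte adhesion receptor, stood at 19.3, 18 and 19.4 CPM in the USP13 control, 5.99, 6.57 and 5.33 under sh50 and 5.52, 5.49 and 4.54 under sh52. It stood at 70.3, 66.7 and 70.1 in the ZHX2 control, 110, 106 and 113 under sh43 and 114, 103 and 93.7 under sh45. The groups did not overlap in either experiment, and the responses were -1.76 and 0.63. NFKBIA, the inhibitor of NF-kB, had -0.33 and 0.91, and the chemokine CXCL2 had -0.37 and 0.89. The USP13 response of CXCL2 missed the threshold in 10 of the 18 refits, down to -0.23 without USP13 shCtrl replicate 3 (edgeR adjusted p = 0.334). IL6 and TNFAIP3 rose with ZHX2 hairpins by 2.52 and 1.13, with USP13 changes of -0.01 and -0.03 that did not pass. That of IL6 joins opposed changes, from 2.97 CPM in the USP13 control to 2.1 under sh50 and 4.12 under sh52.

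Among proteasome subunits and endoplasmic reticulum chaperones too, those called for USP13 mostly fell and those called for ZHX2 mostly rose. Opposite members with USP13 lower numbered 6 and 7. Of 31 proteasome subunits, 0 rose and 7 fell in the USP13 response, whereas 24 rose and 0 fell in the ZHX2 response, and the difference was called in 93.5%. The medians per hairpin were -0.10 for sh50, -0.06 for sh52, 0.79 for sh43 and 0.11 for sh45, with sh43 the highest. PSMD2, a subunit of the regulatory particle, stood at 272, 291 and 268 CPM in the USP13 control and at 242 to 263 under its hairpins. It stood at 362, 364 and 337 in the ZHX2 control, 950, 950 and 987 under sh43 and 362, 391 and 387 under sh45, which overlapped the control. PSMD13, PSMD14 and PSMC1 were opposite as well, with differences of -0.81, -0.75 and -0.69, and PSMB7 was ZHX2-specific. Without USP13 shCtrl replicate 2 the USP13 responses were -0.09 for PSMD2, -0.17 for PSMD13, -0.07 for PSMD14 and -0.18 for PSMC1, and none passed (edgeR adjusted p = 0.218, 0.178, 0.456 and 0.0593). Other refits lost PSMD2, PSMD13 and PSMD14 too, and that of PSMB7 passed without USP13 shCtrl replicate 1 (-0.19) or ZHX2 shCtrl replicate 2 or 3 (-0.13). Of 22 endoplasmic reticulum chaperones, 0 rose and 12 fell with USP13 hairpins, and 10 rose and 3 fell with ZHX2 hairpins. Heat shock and cytosolic chaperones did not follow this, since 7 of 21 rose and 1 fell with USP13 hairpins and 2 rose and 4 fell with ZHX2 hairpins, with sh43 and sh45 medians of 0.67 and -0.28. EDEM1, SDF2L1, HYOU1 and MANF were opposite, with differences of -0.96, -1.03, -0.63 and -0.58. The USP13 response missed the threshold for SDF2L1 without USP13 shCtrl replicate 1 or 3 (-0.32 and -0.33) and for MANF without replicate 2 or 3 (-0.21 and -0.22). PDIA4, a disulfide isomerase, fell with USP13 hairpins by 0.54. Its ZHX2 mean of -0.03 did not pass, with 0.07 under sh43 and a fall that passed, at -0.14, under sh45.

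Mitotic genes rose mainly with ZHX2 hairpins, in 24 of 30 with 0 falling, while 4 rose and 4 fell with USP13 hairpins. The USP13 hairpins differed here, with medians of 0.17 under sh50 and -0.17 under sh52, against 0.45 under sh43 and 0.31 under sh45. The difference was called in 73.3% of them. AURKB and PLK1, mitotic kinases, rose by 1.09 and 0.63 with ZHX2 hairpins, with USP13 changes of 0.13 and 0.01 that did not pass. CDC20 and CCNB2, an activator of the anaphase-promoting complex and a cyclin, were opposite, with differences of -1.02 and -0.69. The difference was called in 28.6% of 35 DNA replication and E2F genes. Of these, 17 rose and 1 fell with USP13 hairpins and 15 rose and 2 fell with ZHX2 hairpins, 9 of them shared higher. Their medians were 0.40 under sh50 and 0.44 under sh43, but 0.11 under sh52 and 0.03 under sh45. E2F2 and UNG were USP13-specific, rising by 0.84 and 0.37. Under sh45 both fell, by 0.46 and 0.27, and under sh43 UNG rose by 0.19. ORC6 rose with ZHX2 hairpins by 0.89. The USP13 change passed for ORC6 without sh52 replicate 3 (0.28) and for AURKB without USP13 shCtrl replicate 2 (0.36).

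Immediate early and MAPK feedback genes differed in 82.8% of 29, in both directions. FOS stood at 61.5, 62.9 and 60.6 CPM in the ZHX2 control and 1.72 to 3.63 under sh43 and sh45. It stood at 548, 516 and 598 in the USP13 control, 714, 663 and 659 under sh50 and 623, 635 and 630 under sh52. FOS was therefore opposite, at 0.24 and -4.40, as was FOSB at 0.40 and -3.53. FOSL1, another subunit of AP-1, rose under both, by 0.45 and 2.16. DUSP6, a phosphatase induced by ERK signalling, rose with ZHX2 hairpins by 1.82, and PHLDA1 had -0.24 and 1.71. Of 24 p53 targets, 83.3% differed. BTG2, TP53INP1 and CDKN1A fell under both, with ZHX2 responses of -2.18, -1.59 and -0.48. The USP13 response of TP53INP1 was -0.18 without USP13 shCtrl replicate 1 (edgeR adjusted p = 0.098), and the CDKN1A difference was lost in 9 of the 18 refits, at 0.12 to 0.16. GDF15 and FAS were opposite, with USP13 responses of -0.33 and -0.42 and ZHX2 responses of 1.32 and 0.31.

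Cholesterol genes that were called fell with USP13 hairpins. Of 25 cholesterol genes, 0 rose and 20 fell with USP13 hairpins and 3 rose and 10 fell with ZHX2 hairpins, 8 being shared lower. The ZHX2 hairpins differed here, with medians of 0.03 under sh43 and -0.50 under sh45, against -0.38 under sh50 and -0.24 under sh52. LSS, lanosterol synthase, fell by 0.39 and 0.80. SQLE and ACAT2 were USP13-specific, falling by 0.45 and 0.34, although both fell under sh45 (-0.30 and -0.35) and ACAT2 rose under sh43 (0.51), and INSIG1 was opposite, at -0.35 and 0.29. The ZHX2 change of SQLE passed without ZHX2 shCtrl replicate 2, at -0.13 (edgeR adjusted p = 0.0426). Of 18 fatty acid genes, 2 rose and 10 fell with USP13 hairpins and 2 rose and 11 fell with ZHX2 hairpins, 8 being shared lower. SCD, the stearoyl-CoA desaturase, stood at 1391, 1377 and 1291 CPM in the USP13 control, 959, 938 and 978 under sh50 and 1151, 1154 and 1162 under sh52. It stood at 1435, 1374 and 1502 in the ZHX2 control, 306, 332 and 315 under sh43 and 462, 460 and 432 under sh45. All hairpin libraries lay below their controls, and the responses were -0.36 and -1.92. FADS2 fell by 0.52 and 1.03, whereas ELOVL6 was opposite at -0.47 and 0.27. SREBF1, the lipogenic transcription factor, was opposite in the other sense, at 0.20 and -0.66.

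Type I interferon genes only fell where called. Of 30, 13 fell with USP13 and 18 with ZHX2 hairpins, 9 of them shared lower. The medians were -0.45 under sh50 and -0.85 under sh43, but 0.01 under sh52 and -0.10 under sh45. IFIT2, SAMD9 and RSAD2 were shared lower, with USP13 responses of -0.28, -0.25 and -0.74 and ZHX2 responses of -0.94, -0.77 and -0.63. That of SAMD9 to USP13 hairpins was -0.22 without USP13 shCtrl replicate 1 or 2 and missed the threshold (edgeR adjusted p = 0.0717 and 0.066). Under sh52, IFIT2 was at -0.04 and SAMD9 at -0.01, and neither passed. RSAD2 was at -1.16 under sh43 and at -0.11, which did not pass, under sh45. USP18, an interferon-induced protease, fell with USP13 hairpins by 0.50, with a ZHX2 change of 0.00 that did not pass.

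Ribosomal genes that were called mostly rose, and a minority were called under both targets. Of 40 cytosolic ribosomal proteins, 18 rose and 1 fell with USP13 hairpins, 30 rose and 0 fell with ZHX2 hairpins, and 15 were shared higher. Their medians were 0.23 under sh50 and 0.47 under sh45, but 0.03 under sh52 and 0.06 under sh43. RPSA was the opposite member, at -0.11 and 0.44, and its USP13 response missed the threshold in 5 of the 18 refits (-0.09 to -0.11). Of 30 ribosome biogenesis genes, 10 rose with USP13 and 15 with ZHX2 hairpins, with 0 falling in either and 7 shared. NOP2 and LYAR rose by 0.26 and 0.31 with USP13 and by 0.77 and 1.27 with ZHX2 hairpins. The USP13 response of LYAR missed the threshold without sh50 replicate 1 (0.28) or USP13 shCtrl replicate 2 (0.23). The biogenesis medians were 0.15 under sh50, 0.10 under sh52, 0.81 under sh43 and 0.05 under sh45.

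Hypoxia targets held 6 shared higher genes of 27. VEGFA stood at 188, 170 and 197 CPM in the USP13 control and 236 to 263 under its hairpins. It stood at 534, 541 and 566 in the ZHX2 control, 625, 629 and 634 under sh43 and 1514, 1432 and 1395 under sh45. All hairpin libraries were above their controls, with responses of 0.45 and 0.80. STC2, PFKFB4 and the lactate carrier SLC16A3 also rose under both, by 0.95, 0.20 and 0.40 with USP13 and by 1.74, 1.19 and 0.99 with ZHX2 hairpins. STC2 was at 3.33 under sh43 and at 0.15, which did not pass, under sh45. The USP13 response of PFKFB4 missed the threshold in 13 of the 18 refits, down to 0.10 without USP13 shCtrl replicate 1, and that of STC2 without USP13 shCtrl replicate 2 or 3 (0.65 and 0.83). CA12 rose with ZHX2 hairpins by 1.27 and NDRG1 fell by 0.56, the USP13 change of NDRG1 passed without USP13 shCtrl replicate 3 (0.13), and P4HA2, a collagen prolyl hydroxylase, was opposite at -0.30 and 0.66.

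Of 32 extracellular matrix genes, 3 rose and 14 fell with USP13 hairpins and 11 rose and 10 fell with ZHX2 hairpins, with 6 opposite, 5 shared lower and 1 shared higher. Over all genes tested, 10.0% rose and 10.4% fell with USP13 hairpins, and 24.5% and 24.6% with ZHX2 hairpins. LAMB3, a laminin chain, stood at 12.8, 14.5 and 14.2 CPM in the USP13 control, 8.08, 11.1 and 8.2 under sh50 and 11.7, 12.3 and 14 under sh52, which overlapped the control. It stood at 52.9, 56.9 and 53.6 in the ZHX2 control and 212 to 308 under its hairpins, and the responses were -0.36 and 2.20. ITGA5, the fibronectin receptor subunit, had -0.43 and 0.61, PLAU, the urokinase protease, had -0.39 and 1.66, and LAMA5, another laminin chain, had 0.40 and -1.50. LAMA5 was at -2.97 under sh43 and at -0.03, which did not pass, under sh45. Of 17 keratins and S100 proteins, 0 rose and 9 fell with USP13 hairpins and 8 rose and 5 fell with ZHX2 hairpins. KRT18, KRT19, S100A6 and S100A16 were opposite, with differences of -0.96, -1.01, -0.63 and -0.93. The USP13 response missed the threshold for S100A6 without USP13 shCtrl replicate 3 (-0.19) and for S100A16 without sh50 replicate 3 or USP13 shCtrl replicate 2 or 3 (-0.13). Of 26 epithelial and kidney tubule genes, 4 rose and 9 fell with USP13 hairpins, 9 rose and 9 fell with ZHX2 hairpins, and 5 were shared lower. The kidney genes CDH16 and CDH6 fell under both, with ZHX2 responses of -2.15 and -1.25 and USP13 responses of -0.56 and -0.17. PAX2 was opposite, at 0.25 and -0.72. Without USP13 shCtrl replicate 1 the USP13 responses of CDH6 (-0.12) and PAX2 (0.19) missed the threshold. The metal-binding MT1X had a difference of -3.15, from 24.2, 25.5 and 28.6 CPM to 20 to 23.2 in the USP13 experiment and from 11.1, 11.5 and 12.5 to 80.2 to 99.8 in the ZHX2 experiment. Its USP13 response was -0.20 without USP13 shCtrl replicate 3 (edgeR adjusted p = 0.113).

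Complement and acute-phase genes differed in 64.7% of 17. CLU, a regulator of complement, fell with ZHX2 hairpins by 0.93, at -1.64 under sh43 and -0.21 under sh45. Its USP13 mean of 0.06 did not pass and joins opposed changes that each did, 0.29 under sh50 and -0.17 under sh52. SERPINA1, the elastase inhibitor, was opposite. It stood at 44.4, 38 and 36.3 CPM in the USP13 control and 20.4 to 32.8 under its hairpins, and at 68.6, 72.5 and 66.4 in the ZHX2 control and 87.7 to 156 under its hairpins. Hairpin and control libraries were apart in both experiments, with responses of -0.56 and 0.75.

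Amino acid response genes rose mainly with ZHX2 hairpins, 11 of 21 with 1 falling, against 5 rising and 2 falling with USP13 hairpins. Their ZHX2 median was 0.84 under sh43 and 0.17 under sh45. SLC7A11, the cystine carrier, CEBPB and SHMT2 rose by 1.27, 0.84 and 0.76 with ZHX2 hairpins, and their USP13 changes of -0.05, -0.17 and 0.02 did not pass. SLC7A11 was at 2.32 under sh43 and 0.21 under sh45, where 1 library overlapped the control, and at 0.24 under sh50 and -0.34 under sh52, of which the latter passed. The USP13 change of CEBPB passed without sh52 replicate 2, at -0.21 (edgeR adjusted p = 0.0307). Of 20 aminoacyl-tRNA synthetases, 80% differed. YARS1 rose with ZHX2 hairpins by 0.76, and EPRS1 was opposite at -0.13 and 0.24, its USP13 response missing the threshold in 6 of the 18 refits (-0.09 to -0.13). SLC6A6, the taurine carrier, fell under both, by 0.25 and 1.07.

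Wnt pathway and guidance genes held 3 opposite, 4 shared lower and 1 shared higher among 27 tested, and receptor kinases and their ligands held 3 opposite and 1 shared among 23. Over all genes tested, 4.13% were shared lower and 4.04% shared higher, and 1.63% (USP13 higher) and 2.29% (USP13 lower) were opposite. SEMA3C, a semaphorin, had responses of -0.36 and 2.32, INHBA, an activin subunit, -0.79 and 1.26, and EREG, an EGF-family ligand, -0.29 and 1.27. SEMA5B fell under both, at -0.42 and -3.47, and WNT7B rose under both, at 0.45 and 2.21. The USP13 responses of SEMA3C (-0.28), EREG (-0.26) and WNT7B (0.31) missed the threshold without USP13 shCtrl replicate 1. The same held for SEMA3C (-0.35) and EREG (-0.23) without replicate 2, WNT7B (0.43) without replicate 3, and SEMA3C (-0.32) and WNT7B (0.37) without sh52 replicate 3. ID1 and ID3, inhibitors of helix-loop-helix factors, fell under both, with USP13 responses of -0.14 and -0.39 and ZHX2 responses of -1.34 and -1.79. TFPI2, a protease inhibitor, rose under both, at 0.20 and 1.51. COL6A3 and PLAUR rose with ZHX2 hairpins, by 2.11 and 1.57. CCN2, a YAP target, fell with ZHX2 hairpins by 0.87 and had a USP13 change of 0.00. The latter joins opposed changes, from 389 CPM in the USP13 control to 360 under sh50 and 421 under sh52.

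Smaller sets gave single contrasts. Of 44 ubiquitin-specific proteases, 38.6% differed, and USP20 was opposite at 0.22 and -0.19. Its USP13 response missed the threshold without USP13 shCtrl replicate 1 or 2 (0.22 and 0.21), and its ZHX2 response without sh43 replicate 3 or ZHX2 shCtrl replicate 2 (-0.15 and -0.17). The autophagy genes GABARAPL1 and ULK1 had ZHX2 responses of -1.36 and -0.36, and ULK1 and the lysosomal CTSA were opposite, with USP13 responses of 0.20 and 0.18. That of ULK1 was 0.16 without USP13 shCtrl replicate 2 (edgeR adjusted p = 0.106). GCLM, for glutathione synthesis, was opposite at -0.28 and 0.58, PER3, a clock gene, at 0.53 and -0.25, and SRSF6, a splicing factor, at 0.21 and -0.45. GCLM was at 1.13 under sh43 and at 0.02, which did not pass, under sh45. The ZHX2 response of PER3 missed the threshold without ZHX2 shCtrl replicate 1 or 3 (-0.15 and -0.24). HMGA2 rose with ZHX2 hairpins by 1.71. DYNLRB1, a dynein light chain, stood at 136, 134 and 134 CPM in the USP13 control and 234 to 273 under its hairpins, and at 101, 114 and 97.8 in the ZHX2 control and 119 to 191 under its hairpins. It was a shared gene with the larger change under USP13 hairpins, 0.91 against 0.55. DYNLT1 fell with USP13 hairpins by 0.37. Its change was -0.25 under sh43, which passed, and 0.09 under sh45, which did not, for a mean of -0.08 that did not pass.

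Many of the calls named above rest on the mean while 1 of the hairpins missed the threshold taken alone. In the USP13 response sh52 missed it for HMGA1, KRT79, ZNF10, TAPBPL, VHL, EPAS1, CXCL2, IFIT2, SAMD9, P4HA2, STC2, INSIG1, ACAT2, UNG, SDF2L1, MANF, MT1X, ULK1, PSMD2, PSMD14, LYAR, EPRS1, SLC6A6, LAMB3, PAX2, EREG, SEMA3C, SEMA5B, WNT7B, INHBA, ID1, USP18 and USP20. For SYT12, MARCHF3, SLC19A2, PFKFB4, CCNB2, TP53INP1, NOP2, RPSA and S100A16 it was sh50 that missed it, and for PGF, GLIPR2 and PSMD13 both did. In the ZHX2 response sh45 missed it for RELA, RSAD2, STC2, ELOVL6, SDF2L1, GCLM, ULK1, PSMD2, PSMC1, EPRS1, LAMA5, KRT19, PER3 and USP20, and sh43 for ZHX3, HIF1A and P4HA2.

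**Figure D4:**
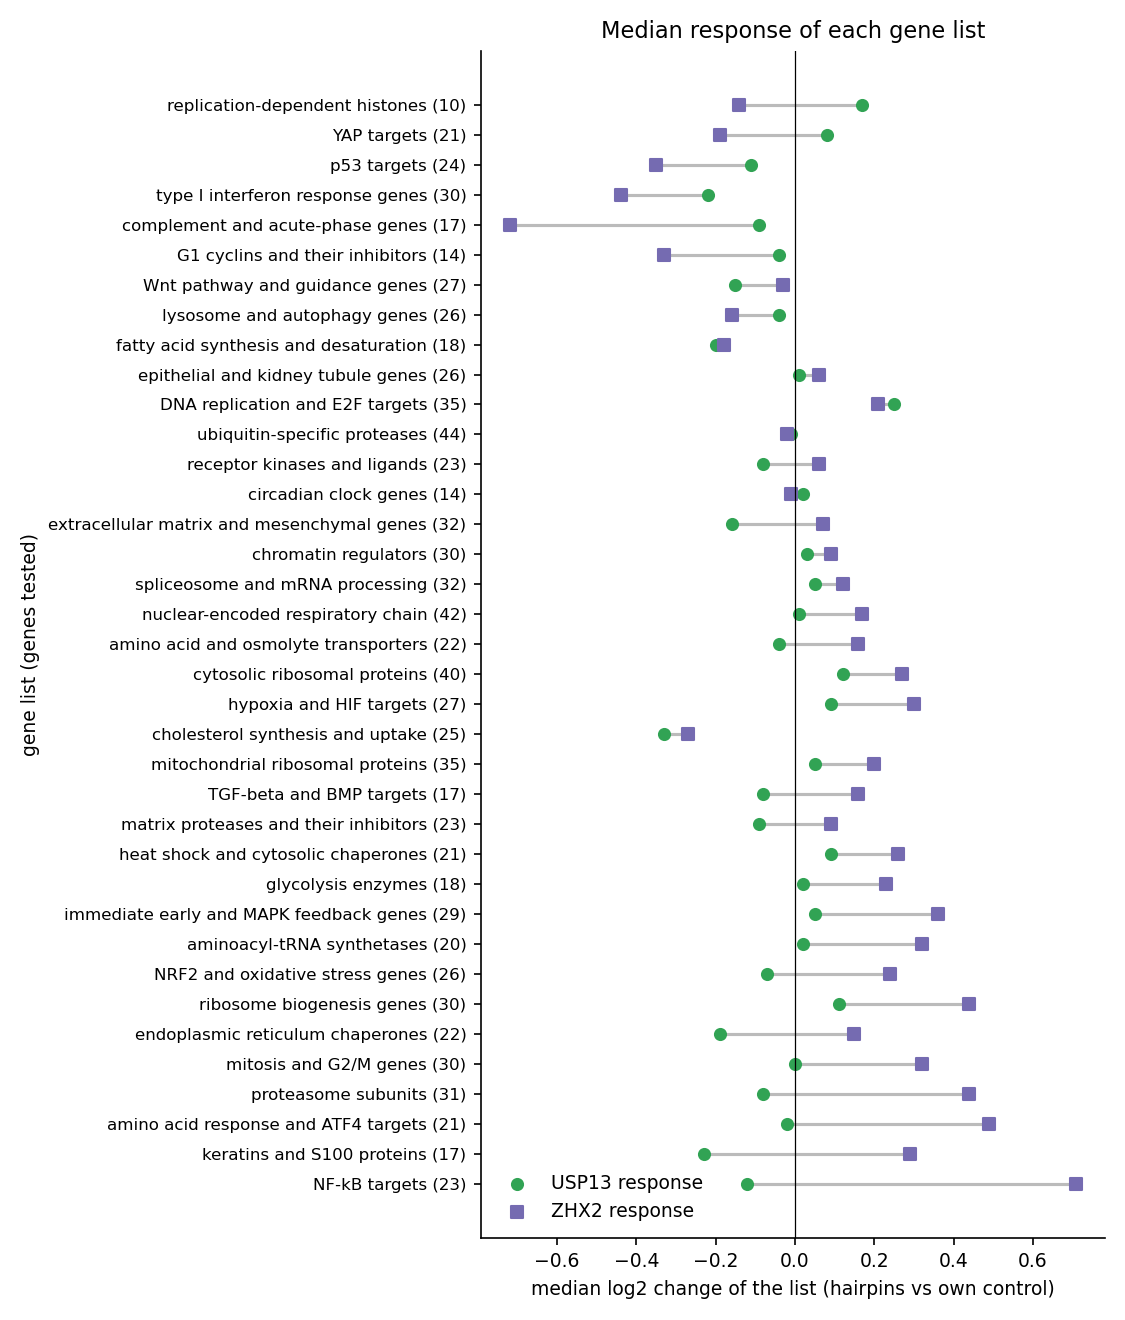
Median log2 change over the tested genes of each list, with circles for the USP13 response and squares for the ZHX2 response; the number of genes tested is in brackets. NF-kB targets (-0.12 and 0.71) and proteasome subunits (-0.08 and 0.44) lie on opposite sides of 0, and DNA replication genes (0.25 and 0.21) lie together.

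Promoters were read from RefSeq (GRCh38.p14), 250 bases before to 50 after each gene's start, for 11336 of the 14200 genes tested. Those of 4 genes are shown because their genes stand for the inflammatory, shared lower and shared higher patterns. Capitals mark an NF-kB-like pattern (ggg, 5 bases of any kind, cc) in VCAM1 and CXCL8, the AP-1 motif TGANTCA in MMP7 and the HIF core ACGTG in ANGPTL4, each searched on both strands. The windows are chr1:100719492-100719791 (plus strand), chr4:73740319-73740618 (plus), chr11:102530698-102530997 (minus) and chr19:8363905-8364204 (plus).

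VCAM1: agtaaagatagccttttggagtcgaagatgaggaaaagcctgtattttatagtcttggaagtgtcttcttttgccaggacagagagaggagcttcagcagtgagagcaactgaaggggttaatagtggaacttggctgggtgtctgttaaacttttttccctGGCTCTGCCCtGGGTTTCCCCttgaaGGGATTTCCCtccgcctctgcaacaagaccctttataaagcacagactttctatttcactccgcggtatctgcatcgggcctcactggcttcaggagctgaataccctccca

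CXCL8: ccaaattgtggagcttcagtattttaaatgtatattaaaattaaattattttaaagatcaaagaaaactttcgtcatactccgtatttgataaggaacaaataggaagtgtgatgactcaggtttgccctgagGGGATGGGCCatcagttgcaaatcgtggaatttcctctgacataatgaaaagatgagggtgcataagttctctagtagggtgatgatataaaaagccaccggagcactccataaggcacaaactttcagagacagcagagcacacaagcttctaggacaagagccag

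MMP7: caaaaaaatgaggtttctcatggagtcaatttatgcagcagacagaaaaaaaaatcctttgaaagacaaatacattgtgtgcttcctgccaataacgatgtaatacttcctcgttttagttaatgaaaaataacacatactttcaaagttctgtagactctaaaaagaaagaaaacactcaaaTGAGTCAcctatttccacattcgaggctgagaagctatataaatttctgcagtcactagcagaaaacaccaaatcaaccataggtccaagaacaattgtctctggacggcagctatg

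ANGPTL4: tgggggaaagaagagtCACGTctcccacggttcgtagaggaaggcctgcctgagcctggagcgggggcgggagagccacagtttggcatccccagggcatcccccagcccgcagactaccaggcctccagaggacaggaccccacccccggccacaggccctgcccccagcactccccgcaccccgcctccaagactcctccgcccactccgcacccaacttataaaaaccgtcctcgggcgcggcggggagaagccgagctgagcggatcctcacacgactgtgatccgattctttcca

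VCAM1 holds 3 NF-kB-like matches, and each of the other promoters shown holds 1 match of its motif. Only the motif named for each promoter is marked. CXCL8 also holds 1 unmarked TGANTCA match, and ANGPTL4 holds 4 unmarked NF-kB-like matches. The NF-kB-like pattern is loose: it occurs in 73.4% of promoters of tested genes, in 80.8% of those opposite with USP13 lower and in 81.5% of those opposite with USP13 higher. TGANTCA occurs in 4.6% of tested promoters and in 10.5% of the 200 promoters of USP13-specific genes that fell. The ETS motif CCGGAAG occurs in 18.8% of tested promoters, in 12% of shared lower and 10.6% of opposite genes higher with USP13, and in 22.6% of shared higher genes. ACGTG occurs in 26.6% of tested promoters, in 30.5% of shared higher and in 23.8% of shared lower genes. The shares carry no test, and a match is not a binding site.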

How the data were processed

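RNA of 786-O cells was sequenced in 18 libraries, 6 groups of 3, from TruSeq RNA v2 libraries read as pairs of 150 bases, per the labels' protocols. Each deposited file lists RefSeq transcripts with Salmon's estimated counts, TPM and effective length, per the file headers. Genome build hg19, Salmon 0.11.3, STAR 2.5.2b, cutadapt 1.12 and DESeq2 1.14.1 are listed, without roles, in the submitters' processing notes. The deposited TPM values, scaled by the authors within each library, were used in no test. The deposited estimated counts were rounded and summed to 27064 genes, and unnamed transcripts (0.0854% to 0.12% of counts) were left out. Salmon divides reads between near-identical copies, so such genes are uncertain, and the kit does not mark strand. No replicate files were identical.

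One edgeR 4.0.16 fit (R 4.3.3) of all 18 libraries with a mean per group, filterByExpr and TMM scaling gave quasi-likelihood F-tests of both responses and of their difference, with Benjamini-Hochberg adjustment over 14200 genes. SEs were taken from the change and its F statistic. The fit was tested on simulated data, where the larger differences were recovered and many of the smaller ones were missed. Shared genes were called the same way in both responses. Opposite genes were called in opposite ways with the difference passing. Specific genes were called for one target, with the other response missing the threshold and the difference passing. The text names 6 ranked genes per class with a mean of at least 5 CPM, 12 fixed genes and members of 38 lists whose difference was called, with a few others of these lists. The members and lists were chosen with earlier results of these data known. Alternatives were other scaling, DESeq2 1.42.0, no filter, length offsets, omission of mitochondrial rRNA, a replicate block, single hairpins and omission of each library. A few genes are not reported here.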

Additional observations from a re-analysis of the deposited data

Results flagged for a closer look

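The following results concern 2 groups whose effects differ by a test of the difference itself. The responses to USP13 and ZHX2 hairpins differed in 6169 genes and were called in opposite directions in 556. Among ranked opposite genes that were higher with USP13 hairpins, the difference (USP13 response minus ZHX2 response, log2) was 1.78 for HSD17B14, 2.40 for LINC02615 and 2.45 for MIR3667HG. It was 1.29 for NINL, 2.16 for CYP2E1 and 1.84 for ALDH1A3. Among those lower with USP13 hairpins it was -4.84 for TNC, -3.80 for PGF and -3.24 for KRT79, and -1.84 for both TSPAN13 and MARCHF3. The fitted value for SYT12, -4.85, rests on 0 to 4 reads per library in the USP13 experiment and is no bound on its size. Control levels differed by more than 2-fold between experiments in 9.09% of opposite genes higher with USP13 and 11.4% of those lower, against 8.85% of all genes. The share was 15.5% of shared higher and 13.6% of shared lower genes. It was 12.7% and 6.22% of USP13-specific genes that rose and fell, and 9.15% and 7.65% of ZHX2-specific genes that rose and fell. The part of the control levels in the differences was not tested.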

How the results depend on the processing

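Counts of called genes stayed within 1.5 times of those reported under other scaling, DESeq2, no filter, length offsets, omission of mitochondrial rRNA and the replicate block (5937 differences called, which lost no call described above except the USP13 responses of PGF, GLIPR2, CXCL2, PFKFB4, PSMD14, RPSA and EPRS1 and the differences of USH1C and CDKN1A), with these exceptions under other rules. Only differences over 1 left 1156. Shared genes numbered 701 with sh52 alone, 344 when each hairpin must pass and 768 to 1206 with 1 library left out, the lowest without USP13 shCtrl replicate 1. Opposite genes numbered 895 with sh43 alone and 131 when each hairpin must pass. USP13-specific genes numbered 249, and ZHX2-specific genes 2405, when each hairpin must pass, and the latter 5580 with sh43 alone. A similar count can hide a change of members. USP13-specific genes numbered 414 with sh43 alone and 496 with sh45 alone, but 186 and 146 of the reported 470 stayed in the class. With sh45 alone 5038 differences were called, 3648 of them among the reported 6169. The difference reversed with sh45 alone for NCEH1 (0.29), USH1C (-0.18), STC2 (0.80), ACAT2 (0.01), NOP2 (0.03) and RRS1 (0.08). It reversed with sh43 alone for RSAD2 (0.42) and VEGFA (0.25), and with sh52 alone for RSAD2 (0.36). The cause was not tested. With sh45 alone, the median difference changed sign for complement (-0.17), interferon (-0.14), cholesterol (0.13), immediate early (0.05), heat shock (0.35) and ribosome biogenesis genes (0.08), and with sh43 alone for replication-dependent histones (-0.14). Across all genes tested, same-numbered libraries did not deviate together from their group means (r -0.087 to 0.058). These values cannot show whether same-numbered libraries were cultured or prepared together, which the labels do not say. Of the 48 ranked genes, 36 kept their class in all 18 refits that leave out 1 library. Low reads limit TNC, SYT12, PGF and MYO7A, among others. In the USP13 experiment, ANGPTL4 held 9 to 14 and STC2 7 to 15 reads in the control libraries. PTX3 held 2 to 15 and COL6A3 5 to 23 reads in the libraries of that experiment. In the ZHX2 experiment, ZFHX4-AS1 held 1 to 12 reads under hairpins. There USH1C held 5 to 11 and CYP2E1 6 to 12 under sh43, and FLRT3 7 to 10 under sh45.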
